A study of Mus musculus with 11 samples.

Results

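Solute carriers are the membrane proteins through which absorptive enterocytes take sugars, amino acids, peptides, vitamins, nucleosides, ions and fatty acids from the gut lumen and pass them to the blood. The genes described here are 35 such carriers of mouse enterocytes, chosen by symbol for their function, out of 31168 named genes in the count table. All 35 were found in the table. Of these, 33 had a mean of at least 1 CPM (counts per 1000000 counts) over the 11 libraries, and 32 of the 33 also passed the filter on low counts and were tested.

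The RNA came from 2 cm pieces of distal ileum, the end of the small intestine, of mice given dextran sodium sulfate, a polysaccharide that injures the intestinal lining. In 5 mice, called dIEC, floxed H2-Ab1 alleles were combined with Villin:Cre, in which the villin promoter drives the recombinase in epithelial cells of the gut. The 6 WT mice carried the same floxed alleles without the transgene and had received the same agent. The sources used here give no age, sex, dose or cage. Where the series' design text writes both groups as Cre-, the genotype label of each sample was followed. H2-Ab1, the deleted gene of an MHC class II chain, lay on chromosome 17 (34257689 to 34269419, GRCm38) and averaged 26.0 ± 9.87 CPM in dIEC and 83.1 ± 27.4 CPM in WT (SD, n = 5 and 6), with no overlap between the groups (two-sided exact permutation p = 0.00433, the smallest these groups allow). The log2 fold change was -1.68 ± 0.28 (SE), at adjusted p = 0.361 by edgeR over all genes and 1.40e-05 by DESeq2.

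Absorption across an enterocyte takes 2 steps. Carriers in the brush border, the apical membrane, move a nutrient into the cell, many of them driven by the inward gradient of sodium or of protons, and other carriers in the basolateral membrane let it out toward the blood. Several amino acid carriers work as a light chain bound to a heavy chain that brings it to the surface. In mice most of these genes are expressed in mature villus cells rather than in the dividing cells of the crypt, and many differ in level along the length of the small intestine.

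Total counts ran from 6603965 to 9681698 per library. Leaving out Lars2, whose count was unusually large, protein-coding genes held 22.9 to 37.3% of them, 1510296 to 3215574 counts. Ribosomal RNA genes, with Gm42418, held 40.5 ± 8.50% in dIEC and 34.6 ± 6.91% in WT (SD). They held 45.4, 28.7, 49.2, 44.5 and 34.6% in dIEC replicates 1, 3, 5, 6 and 11, and the WT maximum was 43.4% in replicate 8. With protein-coding genes only, the carriers' median log2 fold change, dIEC over WT, was 0.387, against 0.380 with all genes. Beyond that fit the part of ribosomal RNA in the results was not tested. Because the tissue was whole ileum, fewer cells of a type and less RNA per cell cannot be told apart. Markers of epithelium were present in all libraries, with a summed level of 15 genes of 3223 to 4205 CPM in dIEC and 2605 to 4473 CPM in WT. All 15 were detected well enough to be tested.

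The promoters of 3 carriers are shown because these genes were among the 5 that passed the test once a single WT library, described below, was left out. That library was set apart by the carriers' own values. Slc3a1 and Slc7a9 encode the heavy and the light chain of the brush border carrier of cystine and dibasic amino acids, and Slc5a1 encodes the sodium-coupled carrier of glucose and galactose. Each window is the 250 bases before the RefSeq start, 5′ to 3′ on the gene's own strand, in GRCm38.p6. Capitals mark matches, on either strand, to 4 short motifs of transcription factor families that act in gut epithelium. The motif searched for the GATA family was AGATAA. For HNF4, a nuclear receptor of enterocytes, the letters searched were CAAAGTC. For the homeodomain factor HNF1 they were GTTAAT, and for the intestinal factor CDX they were TTTATGG.
Slc3a1, chr17:85028097-85028346, plus strand: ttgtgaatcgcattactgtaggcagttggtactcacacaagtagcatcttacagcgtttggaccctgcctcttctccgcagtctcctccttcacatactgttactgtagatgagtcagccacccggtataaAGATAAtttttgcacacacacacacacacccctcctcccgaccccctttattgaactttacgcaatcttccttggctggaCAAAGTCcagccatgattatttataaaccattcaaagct
Slc7a9, chr7:35448842-35449091, plus strand: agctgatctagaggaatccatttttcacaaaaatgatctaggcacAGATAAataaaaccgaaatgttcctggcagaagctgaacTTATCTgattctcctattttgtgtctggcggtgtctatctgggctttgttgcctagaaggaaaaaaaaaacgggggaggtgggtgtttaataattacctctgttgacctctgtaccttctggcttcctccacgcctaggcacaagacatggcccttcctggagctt
Slc5a1, chr5:33103969-33104218, plus strand: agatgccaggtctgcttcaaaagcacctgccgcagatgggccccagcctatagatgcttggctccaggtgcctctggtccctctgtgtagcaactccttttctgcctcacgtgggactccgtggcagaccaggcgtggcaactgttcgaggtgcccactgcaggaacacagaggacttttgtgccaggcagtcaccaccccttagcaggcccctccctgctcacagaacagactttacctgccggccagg
The Slc3a1 window held a GATA match beginning 119 bases before the start and an HNF4 match 39 bases before it. That of Slc7a9, the upstream one of 2 RefSeq starts, held a pair of GATA matches at 205 and 166 bases. The window of the other Slc7a9 start, not shown, held 0 matches. None of the 4 motifs was found in the Slc5a1 window. In these windows no match overlapped another. RefSeq windows existed for 26 of the 32 tested members (40 windows, since some genes have several starts). AGATAA was in 6 of these windows (15%), against 9.99% of all 32851 windows, and CAAAGTC in 3 (7.5%), against 3.84%. GTTAAT was in 3 (7.5%), against 6.43%, and TTTATGG in 0 (0%), against 2.43%. The AGATAA count includes the same Slc7a7 site in a pair of overlapping windows. All of these are matches of letters and not measured binding sites.

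Levels per length of transcript covered a wide range among the carriers, and the order below is a description. Slc5a1 had the highest level, 47.9 ± 26.4 CPM per kilobase of exon (SD over 11 libraries). It was followed by Slc3a1 at 35.7 ± 18.3, Slc34a2, a sodium-phosphate carrier, at 31.5 ± 15.8, Slc13a2, a carrier of citrate and succinate, at 30.9 ± 17.1, and Slc7a9 at 29.0 ± 10.7, all in CPM per kilobase. These neighbours lay within a standard deviation of each other. The lowest of the tested carriers was Slc46a1, the proton-coupled folate carrier, at 0.744 ± 0.345 CPM per kilobase.

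A few carriers known from the intestine were almost absent from this tissue. Slc2a2, which encodes the facilitative sugar carrier of the basolateral membrane, had 0 to 6 counts per library and a mean of 0.236 CPM. Slc28a1, a sodium-coupled nucleoside carrier that prefers pyrimidines, had 0 to 14 counts and a mean of 0.444 CPM. Slc23a1, a sodium-coupled carrier of vitamin C, had 5 to 16 counts and a mean of 1.21 CPM, which placed it just above the minimum of 1 CPM but below the filter for testing. At this depth no difference between the groups could be read for these 3 genes.

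**Figure D1:**
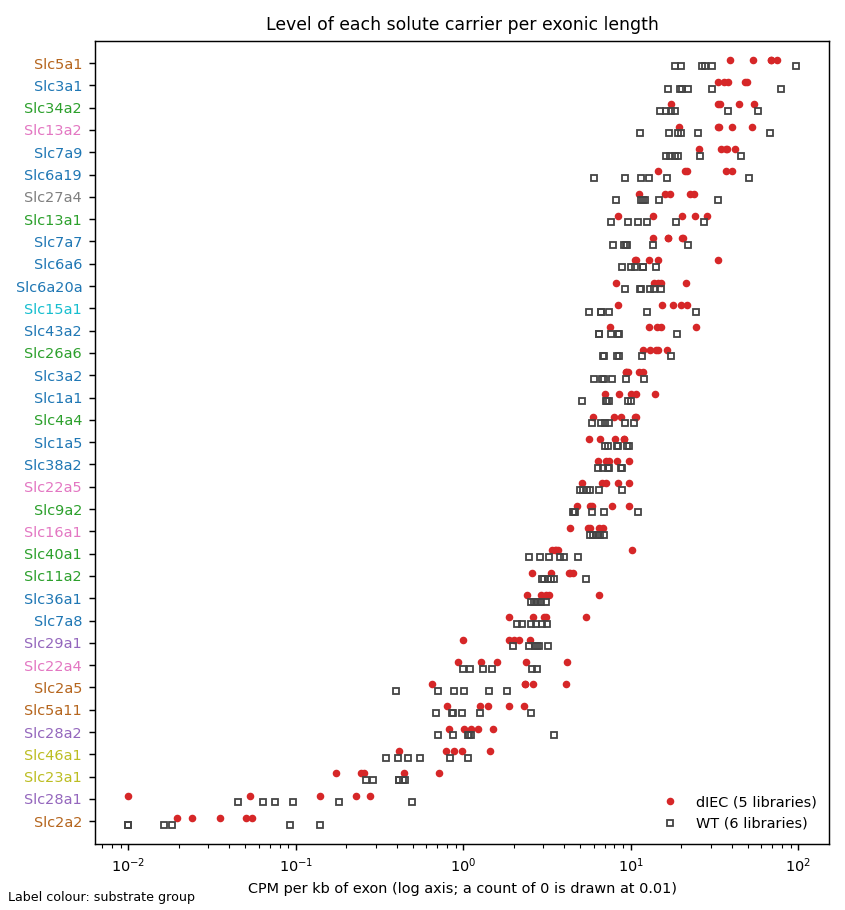
Level of each of the 35 carriers in each library, in CPM per kilobase of exon on a log axis, with dIEC libraries as filled circles and WT libraries as open squares, ordered by the mean of all 11. Slc5a1 is at the top with a mean of 47.9, Slc46a1 is the lowest tested gene at 0.744, and Slc23a1, Slc28a1 and Slc2a2 lie below it.

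A single WT library stood apart from its group. WT replicate 8 was the highest WT library for 27 of the 32 carriers and the highest of all 11 for 15 of them. In the other group, dIEC replicate 6 was the lowest dIEC library for 24. The summed level of the 32 carriers was 2641, 2393, 2026, 1454 and 2402 CPM in dIEC replicates 1, 3, 5, 6 and 11. In WT it ran from 1134 to 1752 CPM in replicates 2, 4, 7, 9 and 12 and was 3044 CPM in replicate 8. Thus dIEC replicate 6 lay among the WT libraries, and WT replicate 8 above every dIEC library.

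The comparison of dIEC with WT asks how the absorptive genes of the ileum differ between mice with and without this deletion in the epithelium. Of the 32 tested carriers, 28 had a log2 fold change above 0, against 48.8% of all 15911 genes tested. Their median was 0.38, and that of all genes was -0.0071. By edgeR's quasi-likelihood test with adjustment over all genes 0 of the 32 passed at 0.05 as higher (0.00628% of all genes did) and 0 as lower (0%), the lowest adjusted p being 0.427, and DESeq2 also called 0 (0.110% of genes in either direction). DESeq2 gave no adjusted p for Slc5a11, Slc46a1 and Slc22a4. Unadjusted, 4 carriers lay higher at p under 0.05, against 4.87% of all genes, and 1 lay lower, against 5.79%. No carrier had groups without overlap (0 of 32, against 0.233% of genes toward higher and 0.333% toward lower values). Apical carriers had a median log2 fold change of 0.40 over 22 genes and basolateral carriers of 0.34 over 7.

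Without WT replicate 8, 5 of the 32 carriers passed the edgeR threshold as higher, against 1.35% of the genes tested in that fit, and 0 as lower, against 0.671% (unadjusted, 16 carriers lay higher and 1 lower at p under 0.05, against 11.2% and 9.82% of genes). The 5 were Slc5a1, Slc7a9, Slc3a1, Slc7a7 and Slc26a6. Then 29 of 32 lay above 0 (49.1% of all genes), with a median of 0.53, and 3 of them, Slc5a1, Slc3a1 and Slc26a6, had groups without overlap toward higher values (2.19% of genes) and 0 toward lower ones (1.6%). With any of the other 10 libraries left out alone, 0 carriers passed. Without dIEC replicate 6 the median was 0.49 and the lowest edgeR adjusted p was 0.196. Both WT replicate 8 and dIEC replicate 6 were singled out by these same carrier values. Leaving out WT replicate 8 lowers the WT level of most carriers. The p-values without either library, here and below, show how much 1 library matters and are not evidence of a difference.

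**Figure D2:**
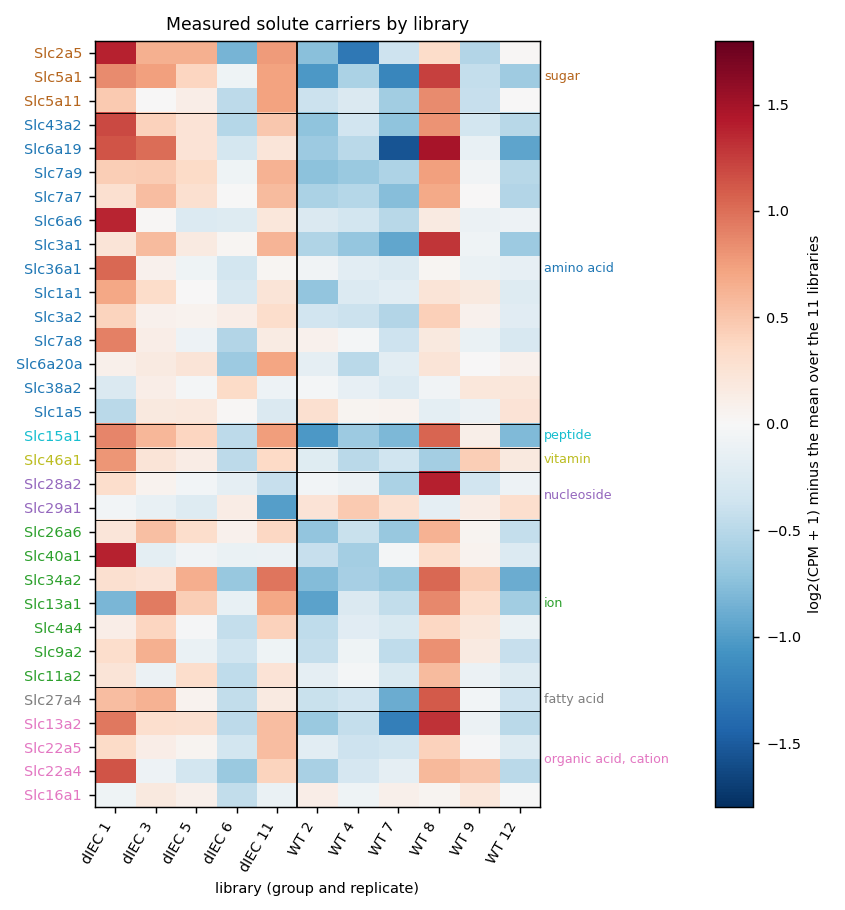
Level of each tested carrier by library, as log2(CPM + 1) minus the gene's mean over the 11 libraries, with dIEC libraries left of the black line, WT libraries right of it, and genes grouped by substrate. The column of WT replicate 8 is red for most genes. Within dIEC, replicate 6 is the lowest for 24 of the 32 genes, though not below the mean of all libraries for each of them. The reddest library for Slc6a6, Slc36a1 and Slc40a1 is dIEC replicate 1.

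**Figure D3:**
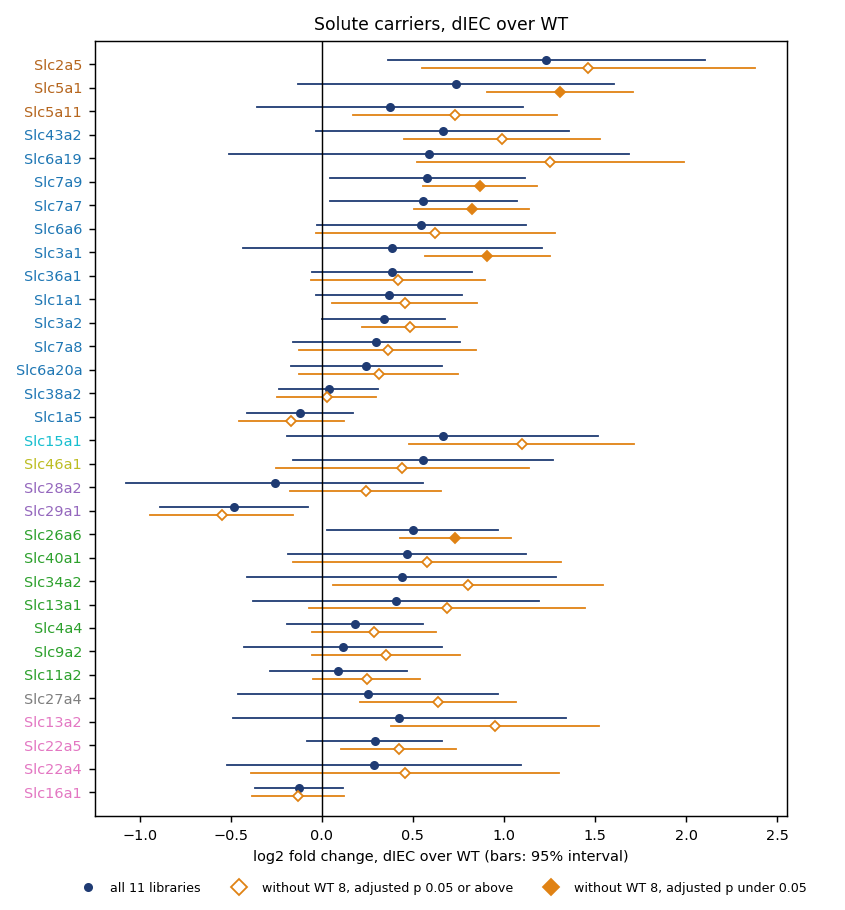
Log2 fold change of each tested carrier, dIEC over WT, with its 95% interval, from all 11 libraries (circles) and without WT replicate 8 (diamonds, filled where the adjusted p is under 0.05). With all libraries 28 of 32 circles lie right of 0, and 5 diamonds are filled. With library size as the only scaling, which is not drawn, Slc38a2, Slc11a2 and Slc9a2 had log2 fold changes below 0.

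Sugar carriers had the highest median among the substrate groups, all 3 lying above 0 with a median log2 fold change of 0.74, though Slc5a11 lay at -0.14 with the epithelial covariate. Slc2a5, the fructose carrier of the brush border, lies on chromosome 4 (150119283 to 150144169, plus strand). It had 14.0, 7.97, 7.94, 2.22 and 8.84 CPM in dIEC replicates 1, 3, 5, 6 and 11, and a lowest, median and highest of 1.36, 3.22 and 6.24 CPM in WT. All dIEC libraries but replicate 6 lay above all WT libraries. Its log2 fold change of 1.23 ± 0.40 (SE) was the highest of the carriers (edgeR adjusted p = 0.427, DESeq2 adjusted p = 0.273). Only 13 to 97 counts per library stood behind these levels.

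Slc5a1, on chromosome 5 (33104219 to 33162870, plus strand), had 308, 284, 222, 160 and 281 CPM in the dIEC libraries in the same order, and 75.0, 112 and 398 CPM as the lowest, median and highest in WT. The WT maximum was replicate 8, and the next WT library, at 126 CPM, lay below every dIEC library. With all libraries its log2 fold change was 0.74 ± 0.40 (SE, adjusted p = 0.505), and without WT replicate 8 it was 1.31 ± 0.19 (adjusted p = 0.0208, 2.48-fold higher in dIEC), the lowest p of any carrier. Slc5a11, a sodium-coupled carrier of myo-inositol, had 5.20, 3.48, 3.87, 2.22 and 6.35 CPM in dIEC and 1.88, 2.56 and 7.03 CPM as the lowest, median and highest in WT, with a log2 fold change of 0.38 ± 0.34 (adjusted p = 0.686). WT replicate 8 held the highest value, and without it the log2 fold change was 0.73 ± 0.26 (adjusted p = 0.130). The ratio of Slc2a5 to Slc5a1 counts, which does not depend on scaling, was 0.0309 ± 0.0116 in dIEC and 0.0285 ± 0.0143 in WT (SD, two-sided exact permutation p = 0.693, adjusted over the 5 ratios given here 0.749).

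Amino acid carriers were the largest group. Of 13, 12 lay above 0 and 1 below, against 48.8% of all genes above 0, with a median log2 fold change of 0.38. At an unadjusted edgeR p under 0.05, 2 lay higher (4.87% of all genes) and 0 lower (5.79%). Slc7a9, on chromosome 7 (35448796 to 35466036, plus strand), had 99.1, 100 and 92.7 CPM in dIEC replicates 1, 3 and 5, and 68.8 and 113 CPM in replicates 6 and 11. In WT it had a lowest, median and highest of 43.3, 50.3 and 122 CPM. Apart from WT replicate 8, only WT replicate 9, at 69.5 CPM, reached the lowest dIEC library. The log2 fold change was 0.58 ± 0.25 (SE, adjusted p = 0.444), and 0.87 ± 0.15 without WT replicate 8 (adjusted p = 0.0327).

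Its heavy chain gene Slc3a1, on chromosome 17 (85028376 to 85064236, plus strand), had 86.4, 109, 82.1, 75.0 and 113 CPM in dIEC, against 37.8, 47.9 and 180 CPM as the lowest, median and highest in WT. Every dIEC library lay above the other 5 WT libraries, which reached 69.2 CPM, and below WT replicate 8. Accordingly the log2 fold change was 0.39 ± 0.38 with all libraries (adjusted p = 0.715) and 0.91 ± 0.16 without that one (adjusted p = 0.0327). The ratio of light to heavy chain, Slc7a9 to Slc3a1 counts, was 1.02 ± 0.110 in dIEC and 0.998 ± 0.213 in WT (exact permutation p = 0.749, adjusted 0.749). In WT replicate 8 the ratio was the lowest, 0.677.

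At the basolateral membrane, Slc7a7, the light chain that exports dibasic amino acids, lies on chromosome 14 (54369442 to 54417780, minus strand). It had 55.2, 66.8, 55.4, 44.8 and 67.8 CPM in dIEC, against a lowest, median and highest of 26.1, 31.3 and 73.1 CPM in WT. Again WT replicates 8 and 9 were the only WT libraries above the lowest dIEC value. Its log2 fold change was 0.56 ± 0.24 (adjusted p = 0.444), and 0.82 ± 0.15 without WT replicate 8 (adjusted p = 0.0327). Slc3a2, the heavy chain shared by the basolateral light chains and many other cell types, had 41.8, 33.2, 32.99, 34.2 and 39.4 CPM in dIEC and 21.4, 25.8 and 42.6 CPM as the lowest, median and highest in WT, with a log2 fold change of 0.34 ± 0.16 (adjusted p = 0.471). The groups overlapped in WT replicates 8 and 9 only. The ratio of Slc7a7 to Slc3a2 was 1.61 ± 0.296 in dIEC and 1.33 ± 0.204 in WT (exact permutation p = 0.0952, adjusted 0.476). That of Slc7a8, a light chain for neutral amino acids, to Slc3a2 was 0.435 ± 0.138 and 0.474 ± 0.0973 in dIEC and WT (exact permutation p = 0.524, adjusted 0.749).

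The remaining amino acid carriers ran from a log2 fold change of -0.12 for Slc1a5, a glutamine carrier of many dividing cells, to 0.66 for Slc43a2, a basolateral exit for branched amino acids. Slc6a19, the main sodium-coupled carrier of neutral amino acids in the brush border, had 73.3 to 201 CPM in dIEC and 30.3 to 256 CPM in WT, with 256 CPM in replicate 8 and at most 83.0 CPM in the other WT libraries. Its log2 fold change was 0.59 ± 0.50, and 1.25 ± 0.33 without WT replicate 8 (adjusted p = 0.665 and 0.0732). Of the others, Slc1a1, a glutamate carrier, had 57.6 to 115 CPM in dIEC and 42.6 to 83.1 CPM in WT (0.37 ± 0.19), and Slc6a20a, a proline carrier, 33.2 to 86.9 CPM in dIEC and 37.5 to 62.1 CPM in WT (0.24 ± 0.19). Slc7a8 had 9.34 to 27.2 CPM in dIEC and 10.5 to 15.9 CPM in WT (0.30 ± 0.21). These groups overlapped in all 3 genes, with adjusted p of 0.488, 0.637 and 0.600. Slc38a2, a carrier induced by amino acid shortage in many cell types, showed the least difference, 0.04 ± 0.13 with a 95% interval of -0.23 to 0.31, and lay at -0.17 with library size as the only scaling.

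The taurine carrier gene Slc6a6 and the proton-coupled Slc36a1 set 1 dIEC library apart. Slc6a6 had 280 CPM in dIEC replicate 1, against 90.2 to 123 CPM in the other dIEC libraries and 75.2 to 120 CPM in WT. Slc36a1 had 36.3 CPM there, against 13.5 to 18.2 CPM in the others and 14.3 to 17.5 CPM in WT. Outside that library the groups overlapped for both genes. Without it the log2 fold changes were 0.12 and 0.073, against 0.55 and 0.38 with it.

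Peptide, vitamin and fatty acid uptake were each represented by 1 tested gene. Slc15a1, the proton-coupled carrier of short peptides, had 106, 87.4, 75.5, 41.0 and 97.3 CPM in dIEC, against a lowest, median and highest of 27.4, 34.3 and 119 CPM in WT. Of the dIEC libraries 4 lay above every WT library but replicate 8. The log2 fold change was 0.66 ± 0.39 (adjusted p = 0.540), and 1.10 ± 0.28 without WT replicate 8 (adjusted p = 0.0662), so the call was not reached either way. Slc46a1, the folate carrier, had 4.48, 2.69, 2.44, 1.27 and 3.04 CPM in dIEC and 1.06, 1.57 and 3.29 CPM as the lowest, median and highest in WT, from 8 to 35 counts (log2 fold change 0.55 ± 0.33, adjusted p = 0.540). Slc27a4, a protein of long-chain fatty acid uptake, had 100, 105, 70.9, 49.5 and 76.1 CPM in dIEC and 36.3, 52.8 and 147 CPM in WT (0.25 ± 0.33, adjusted p = 0.796). The groups overlapped for both genes. For Slc27a4 the other WT libraries reached 65.5 CPM, and without WT replicate 8 the log2 fold change was 0.64 ± 0.20 (adjusted p = 0.0937).

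Both tested nucleoside carriers lay below 0, with a median log2 fold change of -0.37. Slc29a1, an equilibrative nucleoside carrier found in many cell types, lies on chromosome 17 (45585200 to 45599606, minus strand). It had 8.67, 8.08, 7.53, 9.97 and 4.004 CPM in dIEC, against a lowest, median and highest of 7.96, 10.9 and 12.9 CPM in WT. Here WT replicate 8 was the lowest WT library, the opposite of its place among most carriers. The log2 fold change was -0.48 ± 0.19 (unadjusted p = 0.0235, adjusted p = 0.428), and -0.55 without WT replicate 8 (adjusted p = 0.106). Slc28a2, the sodium-coupled nucleoside carrier that prefers purines, had 6.36, 5.17, 4.68, 4.27 and 3.45 CPM in dIEC and 2.99, 4.53 and 14.6 CPM in WT. Its log2 fold change was -0.26 ± 0.38 (adjusted p = 0.822) and turned to 0.24 without WT replicate 8, which held 110 of the counts against 23 to 46 in the other libraries.

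Ion carriers all lay above 0, 7 of 7 with a median log2 fold change of 0.40, although Slc9a2 and Slc11a2 lay below 0 with library size as the only scaling and Slc9a2 also without dIEC replicate 3. With the epithelial marker score as a covariate, described below, 5 of the 7 lay below 0. Slc26a6, an apical exchanger of chloride for bicarbonate and oxalate, lies on chromosome 9 (108853283 to 108913049, plus strand). It had 70.9, 88.9, 76.2, 63.9 and 79.3 CPM in dIEC, against 36.7, 45.3 and 94.2 CPM as the lowest, median and highest in WT. WT replicate 8 was the only WT library inside or above the dIEC range. The log2 fold change was 0.50 ± 0.22 (adjusted p = 0.444), and 0.73 ± 0.14 without that library (adjusted p = 0.0350).

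The sulfate carrier gene Slc13a1 had 65.2 to 222 CPM in dIEC and 58.7 to 211 CPM in WT (0.40 ± 0.36), and Slc9a2, a sodium-proton exchanger, 33.5 to 67.9 CPM in dIEC and 31.5 to 77.6 CPM in WT (0.11 ± 0.25). Slc4a4, a basolateral sodium bicarbonate carrier, had 64.6 to 117 CPM in dIEC and 63.1 to 114 CPM in WT (0.18 ± 0.18). WT replicate 8 set the upper end of WT for all 3. Without it the other WT libraries reached 144, 48.5 and 100 CPM for Slc13a1, Slc9a2 and Slc4a4, and the log2 fold changes were 0.69, 0.35 and 0.29 (edgeR adjusted p = 0.285, 0.305 and 0.327). Slc34a2 had 171, 167, 222, 87.0 and 273 CPM in dIEC and a lowest, median and highest of 75.1, 89.7 and 288 CPM in WT, with a log2 fold change of 0.44 ± 0.39 (adjusted p = 0.682). WT replicates 4, 8 and 9 lay above the lowest dIEC library, and without replicate 8 the log2 fold change was 0.80 (adjusted p = 0.204). Iron passes the brush border through the divalent metal carrier encoded by Slc11a2 and leaves through ferroportin, encoded by Slc40a1, which macrophages also make. Slc40a1 had 91.8 CPM in dIEC replicate 1, against 30.5, 33.2, 31.8 and 32.2 CPM in dIEC replicates 3, 5, 6 and 11, and 22.3, 31.5 and 43.5 CPM as the lowest, median and highest in WT. That library alone lay outside the WT range, and the log2 fold change was 0.47 ± 0.30 with it (adjusted p = 0.565) and 0.0063 without it. Slc11a2 had a log2 fold change of 0.090 ± 0.18, with a 95% interval of -0.29 to 0.47, and of 0.24 without WT replicate 8. The ratio of Slc11a2 to Slc40a1 was 0.646 ± 0.241 in dIEC and 0.731 ± 0.165 in WT (exact permutation p = 0.481, adjusted 0.749), and 0.296 in dIEC replicate 1. Summed over 8 genes, macrophage markers were at 62.2 to 105 CPM in dIEC and 37.3 to 123 CPM in WT, with 105 CPM in dIEC replicate 1. In dIEC replicate 6 they were at 104 CPM, where Slc40a1 was at 31.8 CPM. The part of macrophages in the Slc40a1 levels was not tested.

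Of the 4 carriers of organic acids and cations, 3 lay above 0 and 1 below, and with the epithelial covariate all 4 lay below. Slc22a5, the sodium-coupled carnitine carrier, had 25.7, 22.0, 20.8, 15.8 and 30.1 CPM in dIEC and 15.3, 17.3 and 27.1 CPM as the lowest, median and highest in WT (log2 fold change 0.29 ± 0.17, adjusted p = 0.538). Slc13a2 had 127, 80.7, 80.6, 47.0 and 96.9 CPM in dIEC and 27.5, 47.4 and 163 CPM in WT (0.43 ± 0.42, adjusted p = 0.717). WT replicate 8 was the highest WT library for both, and without it the log2 fold change of Slc13a2 was 0.95 ± 0.26 (adjusted p = 0.0753). Slc22a4, a carrier of ergothioneine, had 2.37 to 10.7 CPM in dIEC and 2.55 to 7.03 CPM in WT (0.28 ± 0.37), and lay at -0.13 without dIEC replicate 1 and at 0.46 without WT replicate 8. Slc16a1, a carrier of lactate and butyrate used by many cell types, had 25.1, 30.3, 28.5, 19.3 and 24.4 CPM in dIEC and 25.3, 27.9 and 30.8 CPM as the lowest, median and highest in WT. The log2 fold change was -0.13 ± 0.11, with a 95% interval of -0.37 to 0.11, and WT replicate 8 lay inside the range of the other WT libraries.

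**Figure D4:**
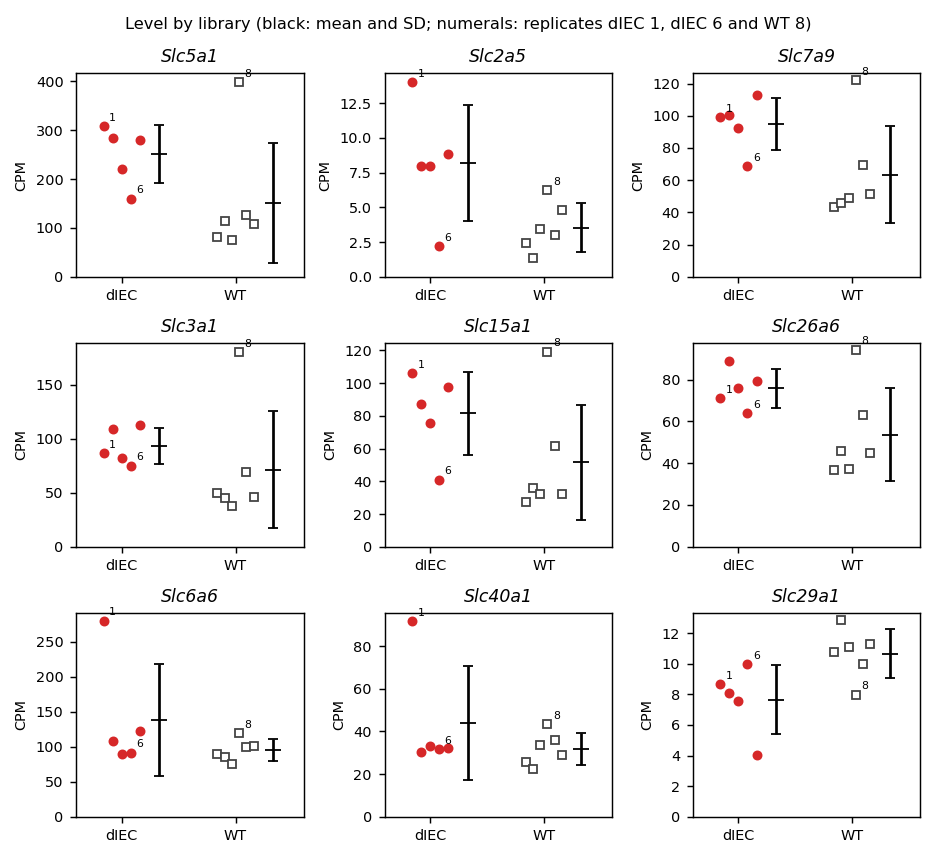
CPM of 9 carriers in each dIEC library (filled circles) and WT library (open squares), with the mean and SD of each group in black and replicates dIEC 1, dIEC 6 and WT 8 numbered. WT 8 is the highest WT point for all but Slc29a1, and dIEC 1 stands at 280 CPM for Slc6a6 and 91.8 CPM for Slc40a1.

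Other genes of absorption also lay mostly above 0. Of 46 tested solute carriers outside the members (56 listed), 36 lay above 0, against 48.8% of all genes. Their median log2 fold change was 0.25. By edgeR 0 passed in either direction (0.00628% of all genes higher, 0% lower), and DESeq2 called 0 (0.11% of genes). At an unadjusted edgeR p under 0.05, 11 lay higher and 2 lower, against 4.87% and 5.79% of all genes. Of 20 tested partner genes of the carriers (21 listed), 14 lay above 0 with a median of 0.42, and 0 passed by either tool. Unadjusted, 5 partner genes lay higher and 1 lower, to be read against the same shares of all genes. In both lists DESeq2 gave no adjusted p for some genes of low count, such as Slc30a10 and G6pc. The lowest p toward higher values were those of Slc22a21, a relative of Slc22a5, at 0.44 ± 0.13, Slc6a4, the serotonin carrier, at 0.83 ± 0.28, and Slc5a9, a sodium-coupled sugar carrier, at 0.56 ± 0.20. Toward lower values they were those of Car2, a carbonic anhydrase, at -0.99 ± 0.34, Slc4a7, a bicarbonate carrier, at -0.29 ± 0.12, and Slc12a2, a chloride carrier of secretory cells, at -0.27 ± 0.12 (log2 fold change ± SE, edgeR adjusted p = 0.427 to 0.455).

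Markers of epithelium as a whole were on the same side. All 15 lay above 0, with a median log2 fold change of 0.24. Of 19 tested genes of brush border enzymes and lipid handling 18 did so, with a median of 0.59. Of all genes tested 48.8% lay above 0. By edgeR and by DESeq2 0 passed in both lists, with no DESeq2 adjusted p for the enzyme gene Mme. At an unadjusted edgeR p under 0.05, 2 and 5 lay higher (4.87% of all genes) and 0 lower (5.79%). Summed enzyme genes ran from 5037 to 12302 CPM in dIEC and from 3361 to 13059 CPM in WT, with the lowest dIEC value again in replicate 6 and the highest WT value in replicate 8. Per unit of summed epithelial markers, the carriers stood at 0.451 to 0.681 in dIEC (mean 0.579) and 0.404 to 0.680 in WT (mean 0.495). Per unit of summed enzyme genes the order was the opposite, with 0.212 to 0.289 in dIEC (mean 0.242) and 0.233 to 0.337 in WT (mean 0.298). With the epithelial marker score as a covariate, the carriers' median log2 fold change was 0.017 and 16 of 32 lay above 0, against 28 without it. By edgeR 0 then passed, with 0 carriers higher (2.03% of all genes) and 1, Slc28a2, lower (1.67%) at an unadjusted p under 0.05.

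Lists for other cell types gave values on both sides of 0. Crypt and proliferation genes lay below 0 in 12 of 12 cases (median -0.33), fibroblast genes in 10 of 10 (median -0.77) and smooth muscle genes in 8 of 8 (median -0.35), while 9 of 9 tested T cell genes lay above 0 (median 0.80). Of all genes tested 48.8% lay above 0. By edgeR 0 of these genes passed (8 fibroblast genes lower and 6 T cell genes higher at an unadjusted p under 0.05, against 5.79% and 4.87% of all genes). DESeq2 called 1, the T cell chemokine gene Ccl5, higher (0.11% of genes in either direction). DESeq2 gave no adjusted p for Cd3e, Cd8a, Gzmb, Cd3g, Trac and Cd4, nor for the crypt genes Ccnb1 and Ascl2. Summed fibroblast markers were at 437 to 806 CPM in dIEC and 479 to 1285 CPM in WT, and summed crypt genes at 102 to 335 CPM in dIEC and 261 to 331 CPM in WT. Goblet, Paneth and macrophage medians were 0.036, 0.0065 and -0.12. Of 7 B and plasma cell markers 3 were tested (median 0.058), and the defining B cell gene Ms4a1 was near 0, with a mean of 0.409 CPM. Neutrophil markers were not tested, and summed to 0.898 to 2.53 CPM in dIEC and 0.752 to 2.15 CPM in WT, S100a8 and S100a9 having means of 0.142 and 0.167 CPM. The part of these shifts in the carriers' values was not tested.

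**Figure D5:**
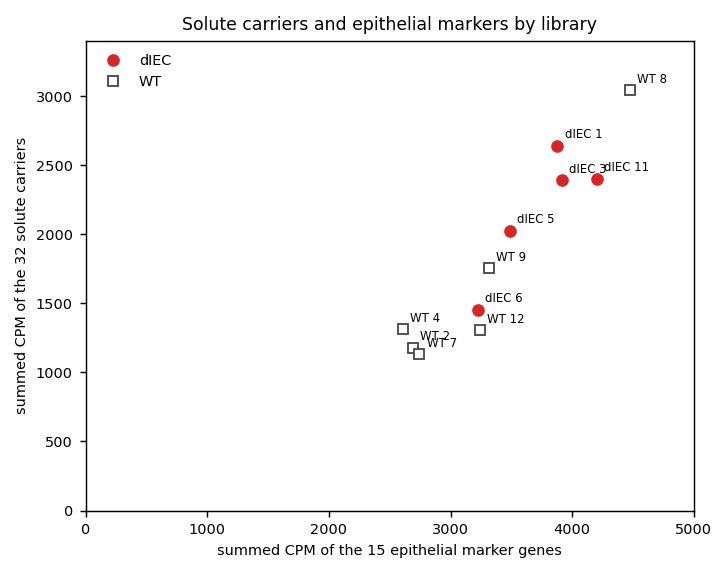
Summed CPM of the 32 tested carriers against the summed CPM of 15 epithelial marker genes, 1 point per library, dIEC as filled circles and WT as open squares. WT 8 is at the upper end of both axes (3044 and 4473 CPM), dIEC 6 (1454 and 3223 CPM) lies beside WT 9 and WT 12, and the other dIEC libraries lie between them and WT 8.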

How the data were processed

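RNA was purified from Trizol on Direct-zol columns and sequenced from directional NEBNext Ultra libraries, per the labels' protocols. Per the submitters' processing notes, TopHat2 and the build mm10 were used. The sources used here name no tool, strand setting or annotation for the counting. The authors deposited whole-number counts per gene, without normalization, in 11 columns that each matched a sample by name. The row that named no gene held 0.00778 to 0.0147% of a library and was left out. Each library was taken as 1 mouse, and the p-values set differences against the spread between libraries. In the edgeR and DESeq2 fits that spread was estimated with information shared over genes. All pairs of libraries within a group differed by more than counting noise, with chi-square statistics of 9.24 to 62.4 times their degrees of freedom.

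In R 4.3.3, filterByExpr of edgeR 4.0.16 kept 15911 genes, which were scaled with TMM factors and tested with the robust quasi-likelihood F test, with Benjamini-Hochberg adjustment over all genes and a threshold of 0.05. The test was also run on simulated counts, drawn independently for each gene. These held no library that stood apart, so they do not show how the test behaves with WT replicate 8. CPM were computed over the kept genes, with each library total multiplied by its TMM factor. Fold changes are log2, dIEC over WT, and their standard error is their size over the root of F. DESeq2 1.42.0 was an alternative, with other scalings and filters, an epithelial covariate and each library left out. Ratios used exact permutation over 462 splits. A ratio between single genes and some genes are not reported here. Coordinates and exonic lengths are from GENCODE vM21 (GRCm38), and promoters from RefSeq.

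Up to 3 members of a substrate group, those of lowest p, are given with all dIEC values and the lowest, median and highest WT value, and others by range. Slc3a1 was added after its values were seen, as 1 of the 5 carriers that passed without WT replicate 8. Carriers of citrate, lactate, carnitine and ergothioneine formed a group of their own. Of the other genes of absorption, the 3 of lowest p in each direction are named. The members and all gene lists were chosen with earlier results of these data known. Exons of 9 of the 35 members share bases with a gene on the other strand (26.5% of Slc3a1 with Prepl, 31.9% of Slc1a1 and 26.2% of Slc13a2), and without the strand setting their reads cannot be told apart. Counts of the relatives Slc22a4, Slc22a5 and Slc22a21, and of Slc6a20a and its copy Slc6a20b, may be split in ways not known here.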

Additional observations from a re-analysis of the deposited data

Results flagged for a closer look

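In 15 of 64 groups of carrier values, 1 library stood apart from the rest of its group by Dixon's 95% limit, and chance alone gives about 1 in 20 for independent genes, which these are not.

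In WT, replicate 8 was the library apart for 12 genes, each time as the highest. It had 398 CPM for Slc5a1, against 75.0 to 126 CPM in the other WT libraries, and 7.03 CPM for Slc5a11, against 1.88 to 3.49. For amino acid carriers it had 256 CPM for Slc6a19 (30.3 to 83.0 in the others), 122 CPM for Slc7a9 (43.3 to 69.5), 180 CPM for Slc3a1 (37.8 to 69.2) and 190 CPM for Slc43a2 (64.7 to 85.4). It had 119 CPM for Slc15a1 (27.4 to 61.4), 14.6 CPM for Slc28a2 (2.99 to 4.68), 34.5 CPM for Slc11a2 (18.7 to 22.3) and 77.6 CPM for Slc9a2 (31.5 to 48.5). For Slc27a4 it had 147 CPM (36.3 to 65.5), and for Slc13a2 163 CPM (27.5 to 60.6).

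In dIEC, replicate 1 was the library apart for 3 genes, also as the highest. It had 36.3 CPM for Slc36a1, against 13.5 to 18.2 CPM in the other dIEC libraries, 280 CPM for Slc6a6, against 90.2 to 123, and 91.8 CPM for Slc40a1, against 30.5 to 33.2.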

How the results depend on the processing

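No paired analysis was possible because the sources used here give no pairing of mice between the groups. Over the leave-one-out fits, carriers past the threshold as higher numbered 0 to 5, all genes 1 to 213 higher and 0 to 106 lower, and H2-Ab1 had a log2 fold change of -1.87 to -1.55. The upper count came without WT replicate 8 in each case, and H2-Ab1 then passed. Carriers that changed sign in such fits were Slc22a4 (-0.13 to 0.47), Slc9a2 (-0.055 to 0.35), Slc38a2 (-0.057 to 0.10) and Slc28a2 (-0.40 to 0.24), and among log2 ratios Slc11a2/Slc40a1 (-0.38 to 0.0050), Slc2a5/Slc5a1 (-0.032 to 0.45) and Slc7a9/Slc3a1 (-0.047 to 0.14). The carriers' median ran from 0.25 to 0.53. With library size alone the carriers had a median of 0.19 and all genes one of -0.22, 1 gene passed as lower, H2-Ab1 passed at -1.90, and Slc38a2, Slc11a2 and Slc9a2 lay at -0.17, -0.11 and -0.030. DESeq2 called 9 genes higher and 2 lower, with H2-Ab1 at -1.67. With the epithelial covariate 0 genes passed as higher, and these carriers turned below 0: Slc5a11 at -0.14, Slc6a20a at -0.092, Slc3a1 at -0.064, Slc34a2 at -0.13, Slc13a1 at -0.044, Slc11a2 at -0.15, Slc9a2 at -0.23, Slc4a4 at -0.14, Slc27a4 at -0.20, Slc13a2 at -0.081, Slc22a4 at -0.17 and Slc22a5 at -0.017. The cause of these changes was not tested. DESeq2 size factors in edgeR, protein-coding genes only, no filter, no robust estimates and 0.5 added to the ratio counts changed no call and no sign. Depth limits Slc2a5, Slc46a1, Slc5a11 and Slc22a4, each below 100 counts in every library, and Slc28a2, at 23 to 46 counts in all but WT replicate 8.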
